A study of Mus musculus with 2 samples.

Results

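The actin-like and perinuclear theca genes described here are 10 mouse genes, picked by symbol and matched by Ensembl identifier to the gene and transcript tables: Actl7a, Actl7b, Actl9, Actl11, Actrt1, Actrt2, Actrt3, Cylc1, Cylc2 and Ccin. All 10 were found among 43346 Ensembl genes, of which 21474 are protein-coding, and they carry 12 transcripts in the tables. The tissue was whole adult testis of C57BL/6J male mice aged 8 weeks, with no mutation and no treatment named in the labels, and poly(A)-selected RNA from it was sequenced as stranded read pairs. There were 2 libraries in 1 group, called replicates 1 and 2. The labels speak of littermates but give both libraries 1 donor identifier, so whether they came from separate animals cannot be told, and the SD between them may be technical. With 1 group there is no contrast, and every value below is a description with no test.

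A sperm head holds a nucleus with little free cytoplasm, and between the nucleus and the membranes lies a rigid cytoskeletal shell called the perinuclear theca. Its front part, the subacrosomal layer, sits between the acrosome and the nucleus and holds the acrosome in place, while its rear part, the calyx, wraps the lower nucleus under the plasma membrane. The shell is laid down while round spermatids elongate in the testis. Several of its proteins are relatives of actin that are made almost solely in male germ cells, and others are the strongly basic cylicins and the Kelch-repeat protein calicin.

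The libraries held 49023238 and 51465728 gene counts in replicates 1 and 2. Markers of the labelled tissue were present, with 5 of 5 round spermatid and 6 of 6 elongating spermatid genes detected. Detected means that both libraries reached 1 TPM. TPM, a transcript's share of all transcripts, is a level divided by transcript length, and it is the scale on which genes are set beside each other below. Marker levels of other cells and of a neighbouring tissue differed between the libraries. The 9 epididymis genes summed to 811.1 TPM in replicate 1 and 3.81 TPM in replicate 2. Of these 9 epididymis genes 1 was detected in both libraries, and Crisp1, the highest, had 454.28 TPM in replicate 1 and 0.2 TPM in replicate 2. The 5 markers of peritubular muscle cells of the testis summed to 267.39 and 120.72 TPM, and 0 of 5 were higher in replicate 2 by scaled counts. Sertoli markers summed to 1384.23 and 1766.9 TPM, of which Clu alone had 1193.18 and 1523.83 TPM. Leydig markers summed to 4407.77 and 5479.93 TPM, of which Insl3 alone had 4187.26 and 5278.15 TPM. Meiotic markers summed to 455.21 and 471.93 TPM. By scaled counts 6 of 6 Sertoli, 4 of 5 Leydig and 5 of 5 meiotic markers were higher in replicate 2, as were 51.4% of detected protein-coding genes. The meiotic Stag3 was nearly equal by scaled counts and lower in replicate 2 by TPM, at 199.05 and 174.46 TPM. The part of these differences in the values below was not tested.

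Promoter sequence was matched for 9 of the 10 genes in RefSeq (assembly GRCm38.p6). Of these 9 promoters, 5 hold the 8-base word TGANGTCA, which was chosen after the sequences were seen. The word also occurs in 8.83% of all promoters and in 16.0% of protein-coding genes at 100 TPM or more. It is a loose form of the cAMP response element TGACGTCA that CREM, a transcription factor of round spermatids, is known to bind. Among the 9, TGACGTCA itself is in the Ccin promoter alone. The windows below run from 121 to 22 bases before the RefSeq start on the strand of the gene, 5′ to 3′, with each match on either strand in capitals, and they are shown because the match lies close before the start in all 5.
Actl7a, chr4:56743301-56743400, plus strand: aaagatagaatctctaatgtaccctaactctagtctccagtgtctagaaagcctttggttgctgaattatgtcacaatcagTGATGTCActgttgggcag
Actl7b, chr4:56741447-56741546, minus strand: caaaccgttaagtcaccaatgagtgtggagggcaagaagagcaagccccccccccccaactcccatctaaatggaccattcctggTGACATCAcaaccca
Actl9, chr17:33432778-33432877, plus strand: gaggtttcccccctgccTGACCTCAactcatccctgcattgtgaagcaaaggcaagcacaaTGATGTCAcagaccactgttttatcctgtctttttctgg
Ccin, chr4:43983383-43983482, plus strand: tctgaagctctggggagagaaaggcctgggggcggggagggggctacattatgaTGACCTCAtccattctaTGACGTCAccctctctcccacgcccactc
Cylc1, chrX:111110297-111110396, plus strand: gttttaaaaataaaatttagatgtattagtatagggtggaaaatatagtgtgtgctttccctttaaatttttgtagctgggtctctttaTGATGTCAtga

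The 10 genes had levels that spanned from 1.55 to 1221 TPM on average, and 6 of them were among the abundant messages of the testis. All 10 were detected, as were 62.1% of all protein-coding genes. A level of 100 TPM in both libraries was reached by 6 of the 10, Actl7b, Actrt2, Actl7a, Actl9, Actl11 and Ccin, against 7.38% of protein-coding genes. Their summed level was 3540.65 TPM in replicate 1 and 3387.9 TPM in replicate 2, or 3464 ± 108 TPM (SD, n = 2). That sum was 0.354% and 0.339% of all TPM, and the 7 actin-like genes made up 3221.1 and 3088.89 TPM of it. The tissue is a mixture, so a low level may mean fewer cells of a type or less RNA in each, and the libraries cannot tell these apart.

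**Figure D1:**
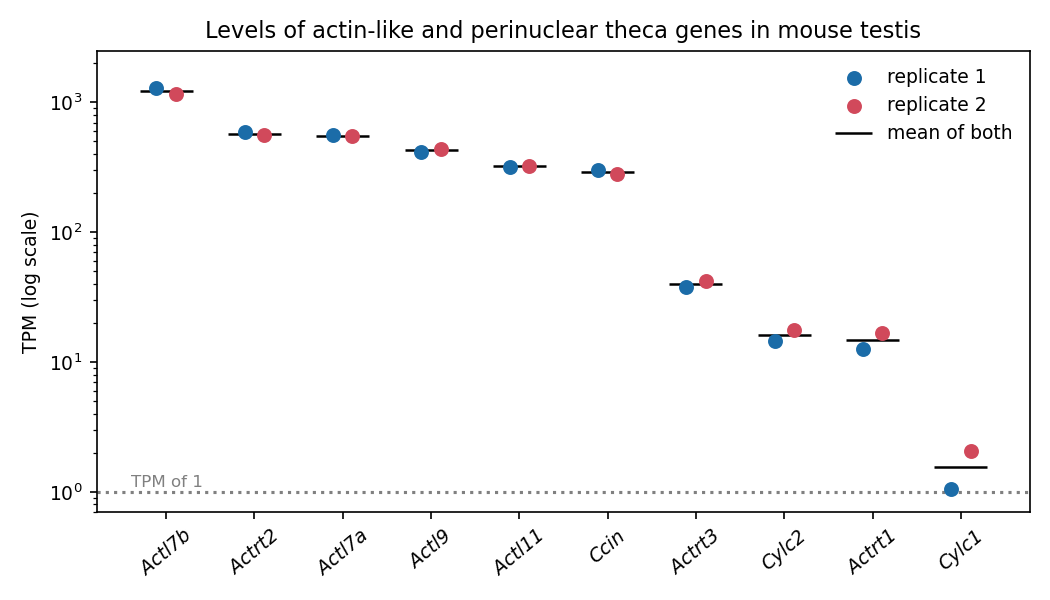
Level of each of the 10 genes in TPM on a log scale, in replicate 1 and replicate 2 (points), with their mean (bar); genes are ordered by mean and the dotted line marks a TPM of 1. The 6 upper genes lie between 279.36 and 1283.98 TPM in both libraries, Actrt3, Cylc2 and Actrt1 between 12.68 and 42.26 TPM, and Cylc1 at 1.05 and 2.05 TPM.

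The genes Actl7a and Actl9 belong to the acrosomal side of the shell, and Actl7b is given beside them. Actl7a, a subacrosomal actin-like protein that mouse sperm need to keep the acrosome attached, had 558.85 and 552.68 TPM in replicates 1 and 2, a mean of 555.8 ± 4.36 TPM (SD, n = 2). It ranked 244 among protein-coding genes, on 29577.95 and 30414.98 expected counts. Actl7b, its neighbour on the chromosome, is needed in the mouse for spermatid head shaping and male fertility. It had 1283.98 and 1158.14 TPM, a mean of 1221 ± 88.98 TPM (SD, n = 2), and was the most abundant of the 10 genes at rank 65. Actl9, an actin-like partner of Actl7a in the theca that is linked to fertilisation failure in humans, had 417.88 and 437.82 TPM, a mean of 427.85 ± 14.1 TPM (SD, n = 2), and ranked 352.

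Actl7b stood at 2.30 times the level of Actl7a in replicate 1 and at 2.10 times in replicate 2. The same gene was as abundant as cytoplasmic beta-actin, with a ratio of Actl7b to Actb of 0.971 and 0.969. Actl7a (chr4:56743413-56744925, plus strand) and Actl7b (chr4:56740005-56741443, minus strand) lie head to head on chromosome 4 of mm10, 1969 bases apart, and each is a single exon. Their coding sequences were identical at 64.0% of 1237 aligned bases, and no stretch of 76 bases, the read length, is shared by their transcripts. Actl7b does share 1233 of its 1364 such stretches with Gm26657, annotated across it on the opposite strand, a name that RefSeq lists as a synonym of Actl7b. Gm26657 was listed at 2.46 and 2.07 TPM, on 110 and 96 counts beside 64121.71 and 60123.39 for Actl7b. The libraries are stranded, but whether these few counts come from RNA of the opposite strand was not tested.

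The Actrt genes encode the actin-related proteins T1, T2 and T3, and the first 2 were found in the calyx of bovine sperm. Actrt2 (chr4:154666433-154667867, minus strand, 1 exon) had 589.85 and 559.04 TPM, a mean of 574.4 ± 21.8 TPM (SD, n = 2), at rank 233. Actrt1 (chrX:46329007-46330345, plus strand, 1 exon) had 12.68 and 16.79 TPM, a mean of 14.7 ± 2.91 TPM (SD, n = 2), at rank 6241. Actrt3 (chr3:30597073-30599939, minus strand, 2 exons), which associates with the spermatid profilin Pfn3 in the mouse, had 38.02 and 42.26 TPM, a mean of 40.14 ± 2.998 TPM (SD, n = 2). The 3 genes thus sit at unlike levels, each apart from the others in both libraries.

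Actrt1 and Actrt2 are the most alike pair among the actin-like genes compared, with 70.5% identity over 1120 aligned coding bases, against a range of 50.9% to 70.5% over 15 pairs that leave out the much longer Actl11. Yet Actrt2 exceeded Actrt1 by 46.5 times in replicate 1 and 33.3 times in replicate 2. No 76-base stretch of either transcript occurs in another gene's transcript on the same strand, so a read could be placed on 1 of them by its sequence. Identity of the 6 compared genes with beta-actin was between 56.7% and 61.6%. The same alignment gave 55.4% to 58.5% for these 6 genes with Ccin, which encodes a protein with no actin fold. Values that low do not tell a relative of actin from another gene.

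Actl11 (chr9:107928469-107932461, plus strand) is the longest of the single-exon genes here, with a transcript of 3993 bases and 3621 coding bases. It had 319.84 and 322.16 TPM, a mean of 321.0 ± 1.64 TPM (SD, n = 2), at rank 489. Of the 10 genes it had the log2 ratio between the libraries nearest to 0. On counts alone it would rank 2 among the 10 rather than 5, since its 48945.34 and 51390.2 counts fall on a long transcript.

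Calicin and the cylicins are theca proteins with no actin fold, and their 3 genes together reached 319.55 and 299.01 TPM. Ccin, which encodes the Kelch-repeat protein calicin of the calyx, had 303.92 and 279.36 TPM, a mean of 291.6 ± 17.4 TPM (SD, n = 2), at rank 541 (chr4:43983483-43985423, plus strand, 1 exon). Cylc2, a basic calyx protein, had 14.58 and 17.6 TPM, a mean of 16.09 ± 2.14 TPM (SD, n = 2), at rank 5947 (chr4:51216678-51230272, plus strand). Cylc1, its X-linked relative, had 1.05 and 2.05 TPM, a mean of 1.55 ± 0.707 TPM (SD, n = 2), at rank 12841 (gene span chrX:111110418-111125854, plus strand). Almost all of the total of these 3 genes was therefore Ccin, and that total leaves out the actin-like genes of the theca.

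The ratio of Ccin to Cylc2 was 20.8 in replicate 1 and 15.9 in replicate 2, and that of Ccin to Cylc1 was 289 and 136. Cylc2 exceeded Cylc1 by 13.9 times in replicate 1 and by 8.59 times in replicate 2. The Cylc2 level in these ratios is that of the whole gene, most of which was assigned to a non-coding transcript described below. The coding forms of Cylc2 alone had 3.41 TPM in replicate 1 and 3.94 TPM in replicate 2. The Cylc1 level rests on 73 and 148 counts and, at 1.05 TPM, only just passed 1 TPM in replicate 1. At a threshold of 5 TPM, 9 of the 10 genes remained. The tables hold 1 Cylc1 transcript, Cylc1-201, of 1923 bases and 1920 coding bases, so its model is almost wholly coding sequence. Cylc1-201 has 5 exons on chrX:111110458-111123874, shorter than the gene span given above. GENCODE M21 also lists Cylc1-202, of 6 exons, which was not analysed here. Reads from untranslated sequence outside Cylc1-201 would not be in the Cylc1 level or its ratios.

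Ordered by mean TPM the genes run Actl7b, Actrt2, Actl7a, Actl9, Actl11, Ccin, Actrt3, Cylc2, Actrt1 and Cylc1. Between the second and the third the gap was narrow: the lower Actrt2 value exceeded the higher Actl7a value by 0.19 TPM, less than the SD of Actrt2. Cylc2 was above Actrt1 within each library, at 1.15 and 1.05 times, but the 14.58 TPM of Cylc2 in replicate 1 was below the 16.79 TPM of Actrt1 in replicate 2. This order takes the whole Cylc2 gene, and its coding forms alone, at 3.41 and 3.94 TPM, were below Actrt1. All other neighbours were apart in both libraries. The widest steps came between Ccin and Actrt3, at 7.27 times, and between Actrt1 and Cylc1, at 9.51 times.

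**Figure D2:**
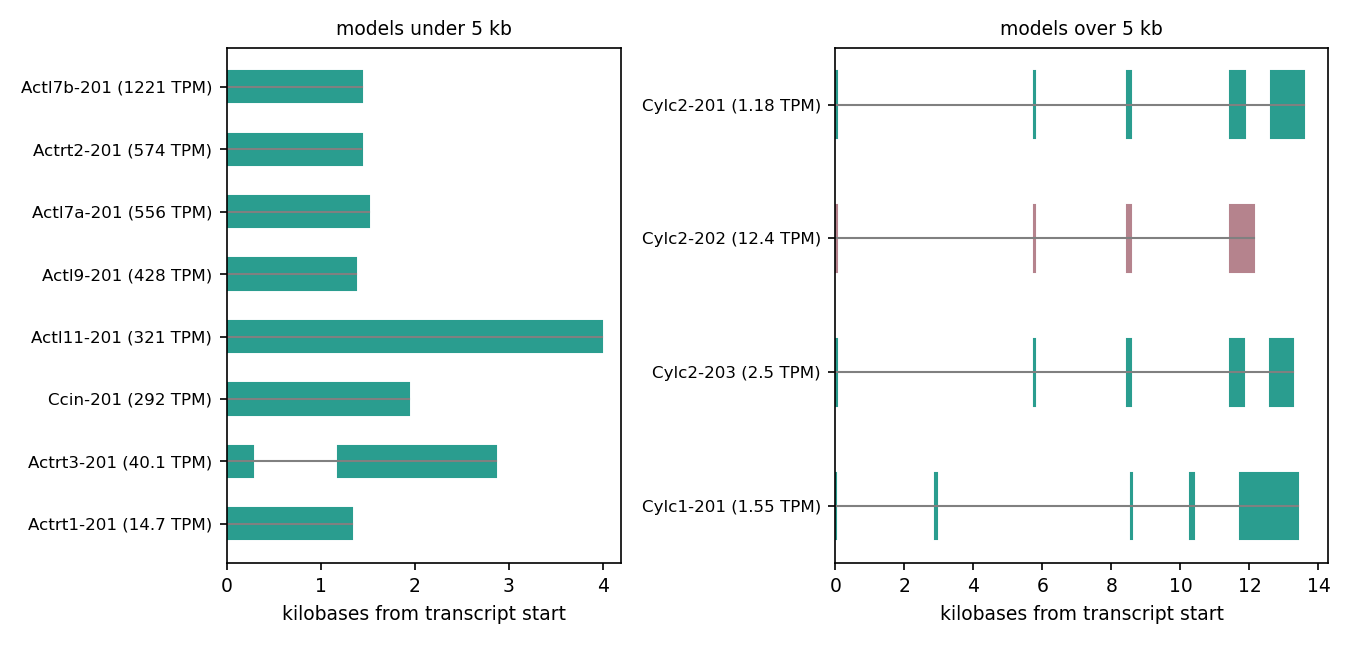
Exon models of the 12 transcripts, in kilobases from the transcript start, with exons as boxes and introns as lines, and the mean TPM of 2 libraries beside each name; models under and over 5 kilobases have separate axes, and the non-coding Cylc2-202 is drawn in a paler red. The 6 most abundant genes are all single exons, and the spliced genes are Actrt3, Cylc2 and Cylc1.

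Of the 10 genes, 7 have a single exon, as do 3.40% of detected protein-coding genes and 10.1% of all protein-coding genes. Detection was less common among single-exon protein-coding genes, at 20.9%, than among all. These 7 held 3487.0 and 3325.99 TPM, and the spliced Actrt3, Cylc1 and Cylc2 held 53.65 and 61.91 TPM. Actrt1 was the single-exon gene at a low level. On chromosome 4 lie 5 of the 10, as do 6.63% of detected protein-coding genes. Of these, Ccin, Cylc2 and the Actl7a and Actl7b pair lie nearer to each other than to Actrt2, at the positions given above. For 9 of the 10 the tables hold 1 transcript, as they do for 28.4% of detected protein-coding genes.

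Cylc2 was the exception, with 3 transcripts that share their first 3 exons. Most of its level was assigned to Cylc2-202, a transcript of 4 exons and 919 bases that GENCODE lists as a processed transcript with no coding sequence. Cylc2-202 had 11.18 and 13.66 TPM, or 76.66% and 77.64% of the gene's TPM in replicates 1 and 2. The coding Cylc2-203 had 1.91 and 3.09 TPM and the coding Cylc2-201 had 1.5 and 0.85 TPM. Together the coding forms reached 3.41 and 3.94 TPM, a mean of 3.68 ± 0.375 TPM (SD, n = 2), or 23.34% and 22.36% of the gene.

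How well the data can separate these forms differs between them. Of the 76-base stretches in Cylc2-202, 258 of 844 occur in no other Cylc2 transcript, as do 344 of 1566 in Cylc2-201, but 0 of 1222 in Cylc2-203. The deposited posterior SD of the count was 14.42 and 14.61 for Cylc2-202, on 323.67 and 409.99 expected counts. For Cylc2-203 it was 23.91 and 22.4 on 84.23 and 141.8 expected counts, and for Cylc2-201 it was 19.33 and 16.87 on 87.1 and 51.2. The posterior SD was thus small beside the count for Cylc2-202 and large for the coding forms. Of the coding forms, Cylc2-203 had the higher TPM in both libraries. In replicate 1 its count was the lower, on 1297 bases against 1641 for Cylc2-201. Both have 1266 coding bases, and with 0 stretches found only in Cylc2-203 the order of these forms is not settled.

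The median level of the 10 genes was 306.3 TPM, and the median over all detected protein-coding genes was 12.94 TPM. The 6 conventional actins had a median of 266.5 TPM, with Actb highest at 1258.7 ± 90.1 TPM (SD, n = 2), and summed to 2494.72 and 2280.13 TPM. The sum of the 7 testis actin-like genes was larger in both libraries. The lowest of the conventional actins was cardiac Actc1, at 0.57 and 0.49 TPM. Of the 76-base stretches of the Actg1 transcript 42.6% also occur in other genes, against 2.09% for Actb. A further 13 actin-related and actin-like genes, which include the dynactin, Arp2/3 and chromatin-remodelling members, had a median of 11.1 TPM. The highest of them was Actr1a, the dynactin Arp1, at 161.5 ± 11.5 TPM (SD, n = 2), below 6 of the 10 genes described here. The lowest was Actbl2, at 0.02 and 0.04 TPM.

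The list of actin capping, profilin and cofilin genes had a median of 103.0 TPM, with Capzb highest at 276.85 and 247.57 TPM and Capza2 lowest at 4.72 and 7.58 TPM. From it, 2 genes known from spermatids were singled out after their values were seen. Pfn3, the profilin that associates with Actrt3, had 200.33 and 156.74 TPM, and Capza3, the germ cell form of the capping alpha subunit, had 131.4 and 159.13 TPM. Pfn3 was above Actrt3 in both libraries. Genes of acrosome attachment and sperm head formation had a median of 78.05 TPM, with Spata46 highest at 855.69 and 762.96 TPM and Gopc, a Golgi protein of acrosome formation, lowest at 3.75 and 4.59 TPM. Round spermatid markers had a median of 781.2 TPM, with Acrbp, an acrosomal protein, highest at 1504.47 and 1680.23 TPM and Spaca1, of the acrosomal membrane, lowest at 171.31 and 216.56 TPM. Elongating spermatid markers had a median of 10155 TPM, with Tnp2, a transition protein of sperm chromatin, highest at 25883.68 and 25433.26 TPM and Odf1, of the tail fibres, lowest at 3368.93 and 3327.41 TPM. All 6 elongating spermatid markers were above each of the 10 genes.

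**Figure D3:**
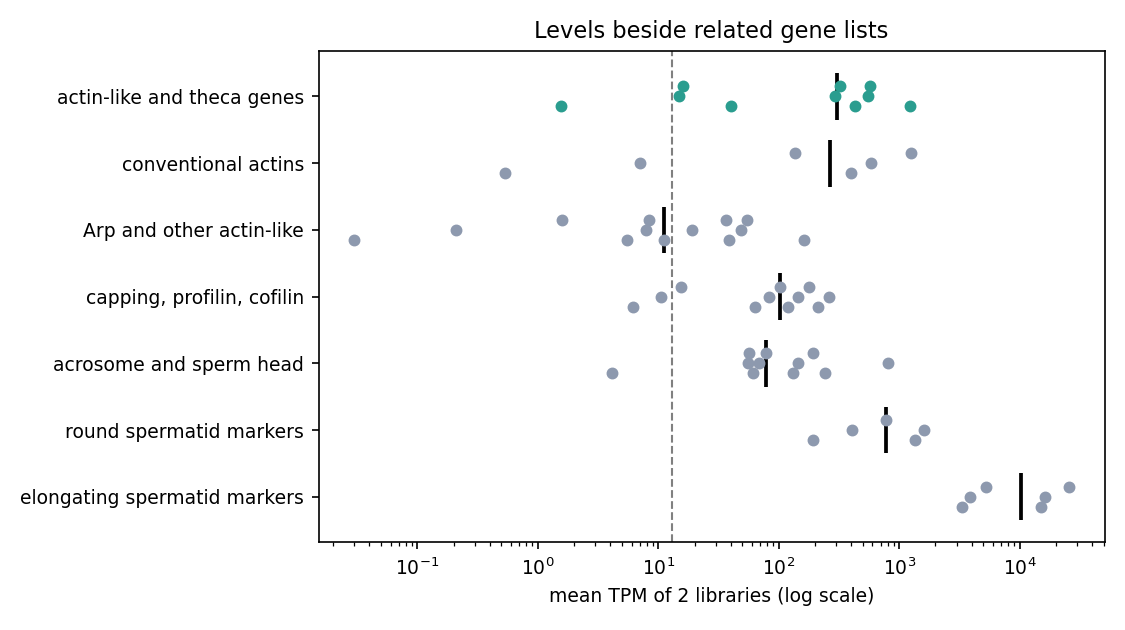
Mean TPM of 2 libraries on a log scale for each gene (points) of 7 lists, with the median of the list as a bar and the dashed line at 12.94 TPM, the median of detected protein-coding genes. The actin-like and theca genes span 1.55 to 1221 TPM, with a median of 306.3 TPM against 266.5 TPM for conventional actins and 11.1 TPM for other actin relatives.

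The libraries lay closest in the 8 autosomal genes, and the widest gaps were in the X-linked ones. The log2 ratio of replicate 2 over replicate 1 was computed from counts scaled by TMM, a trimmed mean that sets the bulk of genes to no change. It was −0.17 in Actl7b, −0.14 in Ccin, −0.10 in Actrt2 and −0.04 in Actl7a. In Actl11 it was −0.01, with an interval that includes 0, and in Actl9 it was 0.05. In the less abundant genes it was positive, at 0.13 in Actrt3, 0.21 in Cylc2, 0.38 in Actrt1 and 0.94 in Cylc1.

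Cylc1 was the gene that differed most, 1.92-fold higher in replicate 2, with a 95% counting interval of 0.53 to 1.37 on the log2 scale. Such a gap or a larger one, in either direction, occurred in 1.22% of detected protein-coding genes, of which the central 95% lay between −0.64 and 0.58. For Actrt1 the interval was 0.23 to 0.54, and 15.6% of detected protein-coding genes were at least as far apart. Cylc1 and Actrt1 are X-linked. For detected X-linked protein-coding genes the median log2 ratio was 0.27, and the central 95% lay between −0.64 and 0.92. None of the 10 genes was more than 2-fold apart, and 1.06% of detected protein-coding genes were. Intervals cover counting error only, since each side is 1 library. The reads carry no molecular identifiers, so repeat reads of 1 molecule could not be told apart, and the intervals may be too narrow.

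**Figure D4:**
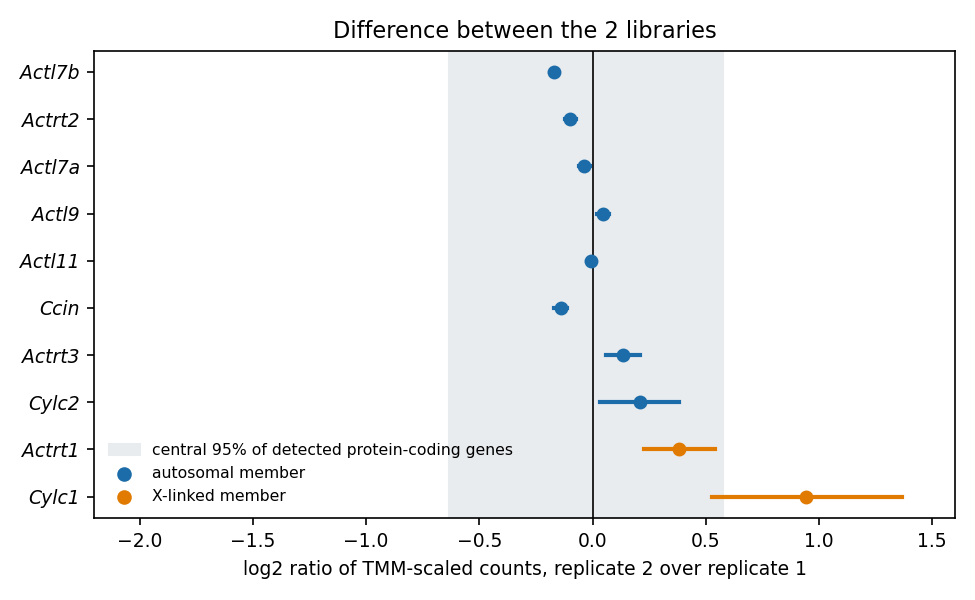
Log2 ratio of TMM-scaled counts, replicate 2 over replicate 1, for each of the 10 genes (points; lines are 95% counting intervals), with the X-linked genes in orange and the central 95% of detected protein-coding genes shaded. Cylc1, at 0.94, is the gene whose point lies outside the shaded band of −0.64 to 0.58, and its interval reaches into it.

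Being higher in replicate 2 was about as common among the 10 genes, 5 of 10, as among detected protein-coding genes, 51.4%. Over all genes the direction went with base composition. Of detected genes with a transcript GC content under 45%, 82.5% were higher in replicate 2, with a median log2 ratio of 0.20, while of those at 55% or more 24.5% were, with a median of −0.14. Cylc1, Cylc2 and Actrt1, at 36.2%, 38.9% and 43.8% GC, are in the first class, and Actrt2 and Actl7b, at 56.3% and 58.6%, are in the last. Less the median of the same GC class, an alternative added after the data were seen, the ratio was 0.74 in Cylc1, 0.18 in Actrt1 and 0.01 in Cylc2.

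The 4 genes lowest in GC were also the 4 lowest in level, Actrt3 being the fourth at 49.3% GC. Both X-linked genes were among these 4, and 3.72% of detected protein-coding genes are X-linked. Of all X-linked protein-coding genes 52.7% were detected. X-linked genes that were detected had a median of 5.475 TPM, against 13.48 TPM for detected autosomal genes, and 78.0% of them were higher in replicate 2. Among 496 detected X-linked genes, Actrt1 ranked 120 and Cylc1 447 by mean TPM. So Actrt1 lay above the median of its chromosome's detected genes, and Cylc1 lay below it. The part of GC content and of X linkage in these values was not tested.

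The promoter words were compared with all promoters of the same 300 bases, 250 before and 50 after the start. The word TGANGTCA, searched on both strands and chosen after the sequences were seen, occurs in 5 of 9 promoters here and in 8.83% of 32851 promoters. It occurs in 9.95% of detected protein-coding genes and in 16.0% of the 1279 protein-coding genes with a matched promoter and a level of 100 TPM or more. Of its forms, TGACGTCA is in the Ccin promoter and in 1.79% of all, and TGATGTCA is in the Actl7a, Actl7b, Actl9 and Cylc1 promoters and in 3.62% of all. Among the 1279 genes at 100 TPM or more, the shares were 3.99% for TGACGTCA and 7.27% for TGATGTCA. Both forms are counted within TGANGTCA.

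The match starts 40 bases before the RefSeq start in Actl7a, 36 in Actl7b, 60 in Actl9, 50 in Ccin and 32 in Cylc1. Actl9 and Ccin have a second match on the other strand, starting 104 and 67 bases before the start. Among the 6 genes above 100 TPM, 4 hold the word and Actrt2 and Actl11 do not, and of the low genes Cylc1 holds it. Genes with and without the word were thus found at both high and low levels. A match describes letters in these windows and is not a measured binding site.

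**Figure D5:**
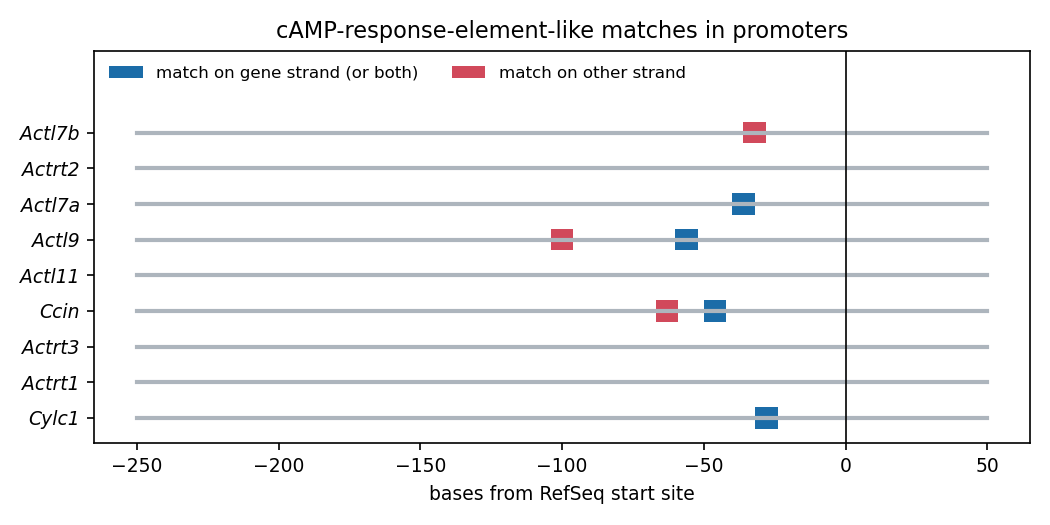
Positions of TGANGTCA in the promoters of 9 genes, in bases from the RefSeq start site (vertical line), with matches on the strand of the gene or on both in blue and on the other strand in red. The 7 matches lie in 5 promoters, all between 104 and 25 bases before the start, and the promoters of Actrt2, Actl11, Actrt3 and Actrt1 hold none.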

How the data were processed

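Gene and transcript tables of both libraries on mm10 with annotation M4 were used (build and annotation from the deposited readme). Expected counts are, per the file headers, the authors' estimated read counts per gene and transcript, and TPM is the authors' length-scaled level. The deposited tables also give each transcript's percent of its gene (IsoPct), with posterior means and SDs. Aligner and quantifier: not given in the sources used here. Symbols, gene types and exons came from GENCODE M21 (42462 identifiers matched), and all 12 member transcripts have the length they have there.

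Levels are deposited TPM with the SD over 2 libraries, a precision set by n = 2 and by counting. Counts were rounded and scaled with TMM (edgeR 4.0.16, R 4.3.3) over 19534 genes. Ratios have 95% binomial counting intervals (SciPy 1.17.1). Their code was checked on simulated counts that hold counting error only, which says nothing of wider spread between libraries. DESeq2 1.42.0 size factors, pseudocounts, thresholds, posterior means and other scalings were tried as alternatives. Detected genes have 1 TPM or more in each library. Spike-ins held 2.68% and 2.51% of counts in replicates 1 and 2. Contigs and junctions on mm9 and FPKM were not used here. The naming rule took all 10 genes and the highest and lowest gene of each other list; markers of the other cell types and of epididymis are mostly given as sums. The genes and lists were chosen with earlier results of these data known.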

Additional observations from a re-analysis of the deposited data

How the results depend on the processing

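All 10 genes were detected under every threshold and scale tried except at 5 TPM, where 9 were. The summed level of the 10 genes was 4098 TPM when TPM was rescaled to nuclear protein-coding genes, against 3464 TPM as deposited. Ranked by counts not divided by length, 4 of 10 genes kept their rank: Actl7b, Actl7a, Actrt3 and Cylc1. Leaving out 1 replicate gave a summed level of 3387.9 to 3540.65 TPM, a median of 300.8 to 311.9 TPM, 10 detected genes, the same order of all 10, and a Cylc2-202 share of 76.66% to 77.64%. Less the median of detected genes in the same GC class, an alternative chosen after seeing the data, the log2 ratio turned to 0.013 in Actl7a (−0.036 by TMM) and to 0.043 in Actrt2 (−0.098 by TMM), and the cause was not tested. No paired analysis was possible because the labels give 1 group. With 2 libraries that may share an animal, the SDs say little of the spread between mice, and the level of Cylc1 rests on low counts.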
